A study of Mus musculus with 4 samples.

Results

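Regulatory T (Treg) cells sorted from the visceral fat of mice with and without a deletion of Srebf2 were compared, cell by cell within 1 mixed droplet library. Members were the droplet barcodes of that pool with 500 genes or more, a mitochondrial share under 10%, no transcript of Cd79a, Lyz2 or Cd8a (genes of B cells, macrophages and CD8 T cells), and 1 antibody hashtag at 90% or more of their hashtag counts. Of 9036 barcodes in the pool and 20492 in the series, 7446 met the rule, 3490 from the Srebf2 WT/WT side (Hashtag 1, called WT below) and 3956 from the Srebf2 flox/flox side (Hashtag 2, called KO below). Both sides came from male mice aged 25 weeks at steady state, 4 per genotype, and the design text names the Foxp3YFP-cre driver beside the Srebf2 WT/WT controls, which thus carry the Cre recombinase. That the flox/flox mice carry it too is an inference here. Cre is made where Foxp3 is expressed, which limits the deletion to Treg cells and any other cell that has expressed Foxp3. Cells had been sorted as live CD3+ CD4+ Foxp3+ and mixed in equal parts before a 5′ droplet assay, in which each captured RNA molecule is counted once by its unique molecular identifier (UMI). The separate diet pool of the series came from Foxp3thy1.1 PpargTdt males aged 23 to 27 weeks, 5 on normal chow (NCD) and 5 on a high-fat diet for 22 weeks, and is used only for levels set beside the named genes.

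Each genotype was a single pool of mice under a single hashtag. There is no replicate check for any difference below, no test is possible, and the intervals given are 95% intervals of counting error only. Levels are UMIs per 10⁶ UMIs of the summed pool (CPM), and ratios are log2 of KO over WT, negative where KO is lower. Summed over each side, the data held 14010241 UMIs in WT and 16444262 in KO, with medians of 3589.5 and 3640.5 UMIs and 1621 and 1645 genes per cell. A sum over cells cannot tell fewer cells expressing a gene from less RNA in each, so shares of cells are given where that matters.

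Srebf2 encodes SREBP2, a transcription factor held in the endoplasmic reticulum membrane with SCAP and INSIG proteins while sterols are plentiful. When membrane sterol falls, SCAP carries it to the Golgi, where 2 proteases free its DNA-binding part, which enters the nucleus and switches on the enzymes of cholesterol synthesis. Treg cells of visceral fat are known for a large subset with the interleukin-33 receptor ST2 (gene Il1rl1), the nuclear receptor PPARγ and the surface receptor KLRG1, beside cells with a lymphoid, resting profile and cells with the T-bet and CXCR3 profile of type 1 immunity.

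Promoters of 5 sterol enzymes and of Srebf2 itself are shown as background to the comparison. SREBP2 is known to bind sterol regulatory elements, often beside a CCAAT box bound by the factor NF-Y. Each sequence is the 150 bases before the RefSeq transcription start, 5′ to 3′ on the gene's strand, from RefSeq on GRCm38.p6. Capitals mark matches to TCACNCCAC (a sterol regulatory element) or CCAAT on either strand, so that ATTGG is a CCAAT box read from the other strand. Hmgcs1, at chr13:119690201-119690350 (plus strand), encodes HMG-CoA synthase. Idi1, at chr13:8885456-8885605 (plus strand), encodes the isomerase that makes dimethylallyl diphosphate. Cyp51, at chr5:4104698-4104847 (minus strand), and Msmo1, at chr8:64733579-64733728 (minus strand), encode enzymes that remove methyl groups from lanosterol and its products. Ebp, at chrX:8193513-8193662 (minus strand), encodes a sterol isomerase and was 1 of 3 measured enzyme genes within the 25% limit used below. Srebf2 itself is at chr15:82147119-82147268 (plus strand).
Hmgcs1: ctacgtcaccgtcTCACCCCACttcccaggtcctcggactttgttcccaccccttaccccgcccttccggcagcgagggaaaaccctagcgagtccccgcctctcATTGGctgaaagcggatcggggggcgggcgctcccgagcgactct
Idi1: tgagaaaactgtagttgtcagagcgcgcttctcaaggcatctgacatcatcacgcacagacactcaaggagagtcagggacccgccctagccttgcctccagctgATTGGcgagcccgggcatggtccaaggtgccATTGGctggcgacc
Cyp51: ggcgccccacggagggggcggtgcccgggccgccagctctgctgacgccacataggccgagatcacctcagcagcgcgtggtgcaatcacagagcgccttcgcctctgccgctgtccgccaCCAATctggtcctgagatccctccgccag
Msmo1: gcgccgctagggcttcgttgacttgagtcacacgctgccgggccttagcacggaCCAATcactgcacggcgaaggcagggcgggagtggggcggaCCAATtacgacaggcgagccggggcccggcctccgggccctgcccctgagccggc
Ebp: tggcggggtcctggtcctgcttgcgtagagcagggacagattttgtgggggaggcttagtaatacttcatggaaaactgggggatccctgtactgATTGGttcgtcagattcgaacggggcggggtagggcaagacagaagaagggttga
Srebf2: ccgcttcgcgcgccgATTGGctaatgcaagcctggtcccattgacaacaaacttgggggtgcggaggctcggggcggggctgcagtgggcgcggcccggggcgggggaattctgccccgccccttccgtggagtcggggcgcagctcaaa
Over the 250 bases before the start, 15 of the 20 enzyme genes of cholesterol synthesis had an entry, and 14 of these 15 (93.3%) held a CCAAT box in 1 orientation or the other. Across all 27025 genes with an entry the share was 37.5%. TCACNCCAC was found in 1 of the 15, Hmgcs1, where it begins 137 bases before the start. It was found in 1.22% of all 27025 genes with an entry. Ebp, with equal levels in both pools, carried a CCAAT box as the enzymes that were lower did. Among genes with a WT level at least 25% above the KO level, 47.2% of 354 with an entry held a CCAAT box. The share was 42.1% of 368 genes that were higher in KO by the same measure and 40.2% of 7030 that differed by less. These matches describe letters in a window and are not binding data.

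The first question was whether Srebf2 RNA was lost from the cells labelled KO. Srebf2 (chromosome 15, 82147269 to 82205379 on GRCm38.p6, ENSMUSG00000022463) gave 920 UMIs in WT and 65 in KO. Its WT level was 65.7 CPM (61.5 to 70.1) and its KO level 3.95 CPM (3.05 to 5.04), a log2 ratio of -4.04 (-4.44 to -3.69). A Srebf2 UMI was found in 21.5% of WT and 1.52% of KO cells. The sources used here do not name the exons between the loxP sites, so RNA from a recombined allele may still be counted. In cells with an Il1rl1 UMI the ratio was -4.72 and in cells without one -3.29.

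The residual Srebf2 UMIs lay in 60 KO cells. Of these, 48.3% had a Foxp3 UMI, against 56.9% of the other 3896 KO cells, and 41.7% (29.1 to 55.1) had an Il1rl1 UMI, against 59.0% (57.4 to 60.5). Apobec3, a cytidine deaminase gene that lies near Srebf2 and was also much lower in KO, had a UMI in 23.3% (13.4 to 36) of the 60 cells, 10.3% of the other KO cells, 61.1% of WT cells with a Srebf2 UMI and 50.2% of WT cells without one. The 60 cells carried a median of 99.3% of Hashtag 2, and the lowest of them 90.7%. Across the hashtag threshold, barcodes with 90 to 95% of Hashtag 2 (just inside KO, 59 barcodes) had Srebf2 at 13.6 CPM, and those with 80 to 90% (just outside, 62 barcodes) at 32.7 CPM. On the other end, barcodes with 5 to 10% of Hashtag 2 (just inside WT, 291 barcodes) had 80.3 CPM and those with 10 to 20% (just outside, 105 barcodes) 64.9 CPM.

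A rule of size replaced a test. A gene was measured if it reached 5 CPM in the higher pool and was counted as higher or lower in KO where the larger of the 2 levels was at least 25% above the smaller. Of 9822 measured genes, 531 (5.41%) were higher and 481 (4.9%) lower in KO, 10.3% in all, and the median log2 ratio over all measured genes was 0.00. At 2-fold or more, 55 genes (0.56%) were higher and 49 (0.499%) lower. These shares are the background for every gene group below.

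**Figure D1:**
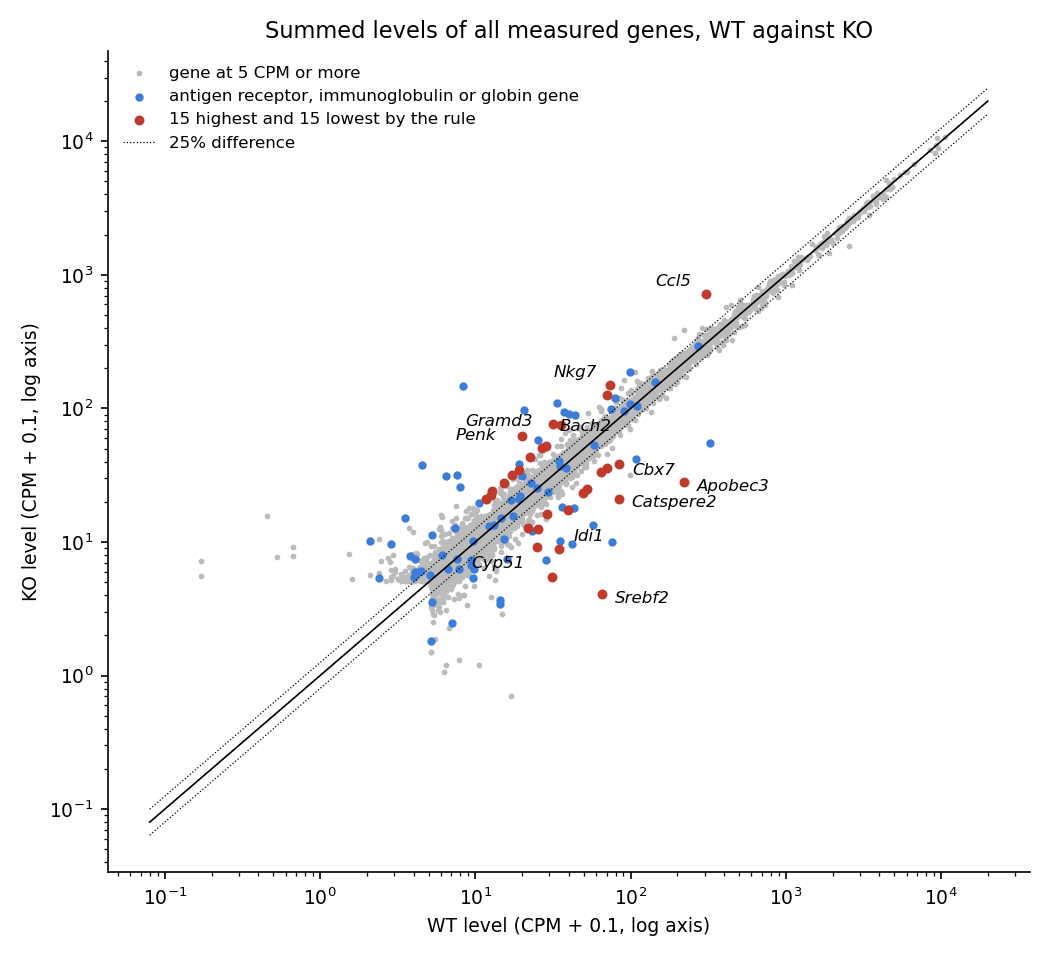
Summed level of each gene at 5 CPM or more in the WT pool (x axis) and the KO pool (y axis), in CPM with 0.1 added for display, both on log axes. The solid line marks equal levels and the dotted lines a 25% difference. Srebf2, Apobec3, Catspere2 and Idi1 lie far below the line among the genes named by the rule (red), and Penk, Gramd3 and Ccl5 lie above it. Antigen receptor, immunoglobulin and globin genes (blue) spread to both sides.

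Genes of cholesterol synthesis were lower in KO along nearly the whole pathway. Of the 20 enzyme genes, 19 were measured, 16 were lower by this rule and none was higher, against 4.9% lower among all measured genes. Their median log2 ratio was -0.70, and their summed level went from 530 CPM in WT to 333 in KO cells. The group is the known target set of SREBP2 and was listed with earlier results of these data known.

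In the mevalonate steps, Hmgcs1 stood at 23.1 CPM (WT) and 13.9 CPM (KO), a log2 ratio of -0.73 (-0.98 to -0.48). The mevalonate kinase gene Mvk and the decarboxylase gene Mvd had ratios of -0.69 and -0.73. Acat2 and Pmvk, the thiolase at the entry and the second kinase, did not pass the rule, with ratios of -0.24 and -0.04 whose intervals both held 0. Between these 2 genes in the pathway, Hmgcs1 and Mvk were lower.

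From the isomerase to the epoxidation of squalene, the 4 listed enzymes were lower by the rule. Idi1 had 480 UMIs in WT and 144 in KO, 34.3 and 8.76 CPM, a ratio of -1.96 (-2.25 to -1.70). Fdps, farnesyl diphosphate synthase, stood at 49.6 and 23.4 CPM (-1.09, -1.27 to -0.91), and Fdft1, squalene synthase, at 35.5 and 24 CPM (-0.56, -0.76 to -0.37). With the hashtag threshold at 99%, which left 244 WT cells, the ratio of Fdps was -0.04. Sqle, squalene epoxidase, a rate-limiting enzyme of the pathway, was almost undetected in KO. It had 235 UMIs in WT and 10 in KO, 16.8 and 0.61 CPM, a ratio of -4.72 (-5.86 to -3.88). That ratio was the lowest of the enzymes and its interval overlapped that of Srebf2 itself.

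Among the steps from lanosterol to cholesterol, Cyp51 stood at 25.1 and 9.0 CPM (-1.47, -1.76 to -1.2) and Msmo1 at 19.99 and 11.3 CPM (-0.82, -1.10 to -0.55). Hsd17b7, Lss, Nsdhl, Dhcr7 and Sc5d had ratios between -0.86 and -0.47, each with an interval below 0. Ebp was at 83.7 and 86.8 CPM, a ratio of 0.05 (-0.06 to 0.16), which leaves out a 25% difference in either direction. Tm7sf2, below 5 CPM in both pools, was not measured. Single enzymes thus ranged from equal levels to a near loss within 1 pathway.

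**Figure D2:**
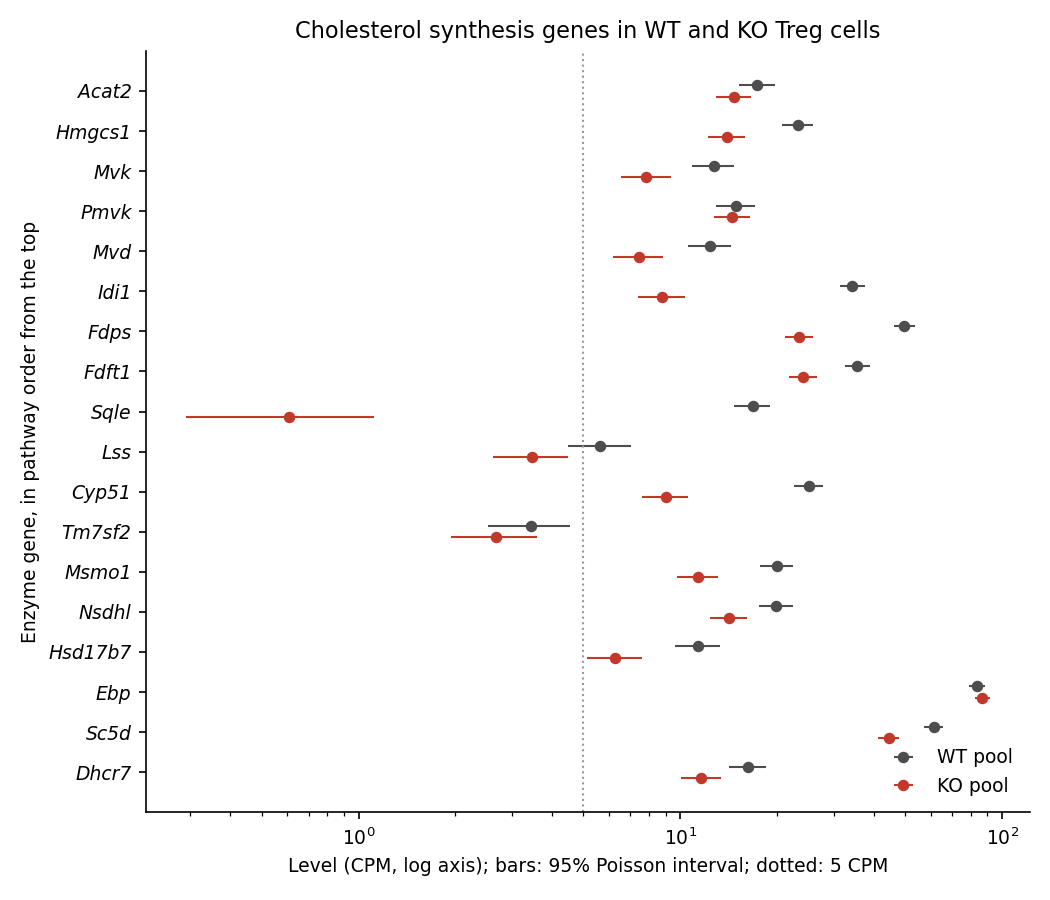
Level of 18 cholesterol synthesis genes in CPM (log axis) in the WT pool (grey) and the KO pool (red), with 95% Poisson intervals, in the order of the pathway from the top. Sqle, at 16.8 CPM in WT and 0.61 in KO, and Idi1, at 34.3 and 8.76, show the widest gaps. Acat2, Pmvk and Ebp are among the genes whose intervals overlap.

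The lower sterol enzyme levels were present in cells with and without a detected Il1rl1 UMI. In cells with an Il1rl1 UMI (2479 WT, 2322 KO), where 6.45% of 9743 measured genes were lower, 16 of 19 enzymes were lower and the median ratio was -0.71. In cells without one (1011 WT, 1634 KO), where 10.1% of 10129 measured genes were lower, 15 of 19 were lower and the median was -0.67. Idi1 had ratios of -1.86 and -2.17 in these gates, Cyp51 -1.42 and -1.58, Fdps -1.03 and -1.19, and Sqle -4.42 and -5.21. The difference between the gates was not tested.

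Counted per cell at an equal depth of 2000 UMIs, which left out 307 WT and 311 KO shallower cells, the mean number of UMIs of the 20 enzymes was 1.03 in WT and 0.646 in KO. Cells with no such UMI made up 38.8% (37.1 to 40.5) of WT and 52.7% (51.1 to 54.4) of KO cells. Cells with 4 or more made up 3.58% of WT and 0.549% of KO cells. Both ends of the distribution were thus shifted, and the zero class did not separate the pools.

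Of the genes that control SREBPs or take up sterol, 4 of 14 measured were lower and 1 was higher, with a median ratio of -0.14. The shares over all measured genes were 4.9% lower and 5.41% higher. Tmem97, a sterol-regulated membrane protein gene, stood at 13.4 and 5.11 CPM (-1.38, -1.77 to -1.01). Insig1, the sterol-induced retention factor of SREBPs, stood at 34.0 and 21.8 CPM (-0.64), and Stard4, a cytosolic sterol carrier, at 26.5 and 18.1 CPM (-0.55). The remaining machinery lay near equal levels. The related factor Srebf1 stood at 25.8 and 21.5 CPM (-0.27, -0.48 to -0.05), within the 25% limit. Scap (-0.15), Insig2 (0.02), the processing proteases Mbtps1 (0.02) and Mbtps2 (-0.15), the lysosomal sterol exporters Npc1 (-0.03) and Npc2 (-0.02), the lysosomal lipase gene Lipa (-0.03) and the HDL receptor Scarb1 (-0.13) had intervals that held 0.

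Lipid genes outside the sterol pathway were mostly within the 25% limit, which 10.3% of all measured genes passed. Of 9 measured genes of sterol storage, efflux and liver X receptor response, Soat1, which esterifies cholesterol (41.9 and 30.7 CPM, -0.45, -0.62 to -0.27), and Mylip, a ubiquitin ligase gene induced by liver X receptors (-0.36), were lower, and none was higher. None of 15 genes of the isoprenoid branch, which draws on farnesyl diphosphate, passed the 25% limit, with a median of -0.00. Icmt (0.24), Rce1 (-0.21), Pdss1 (-0.21) and Fntb (0.18) were among the farthest from equal.

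Fatty acid synthesis had 2 of 11 measured genes lower and none higher, against 4.9% and 5.41% of all measured genes, with a median ratio of -0.18. Acsl3, an acyl-CoA synthetase of lipid droplets, had 76 UMIs in WT and 29 in KO (-1.61, -2.29 to -0.99), and Acaca, acetyl-CoA carboxylase, had a ratio of -0.66. In fatty acid uptake, storage and oxidation, 2 of 17 genes were higher and 3 lower. Dgat2, a triglyceride synthase gene (0.67, 0.32 to 1.02), and Cpt1a, which brings fatty acids into mitochondria (0.44, 0.28 to 0.59), were higher. Fabp5, a fatty acid carrier gene, was lower (-0.44). Cd36 (-1.73) and Fabp4 (-1.64) were lower too, but 1 WT cell held 44.9% and 39.0% of their WT UMIs.

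**Figure D3:**
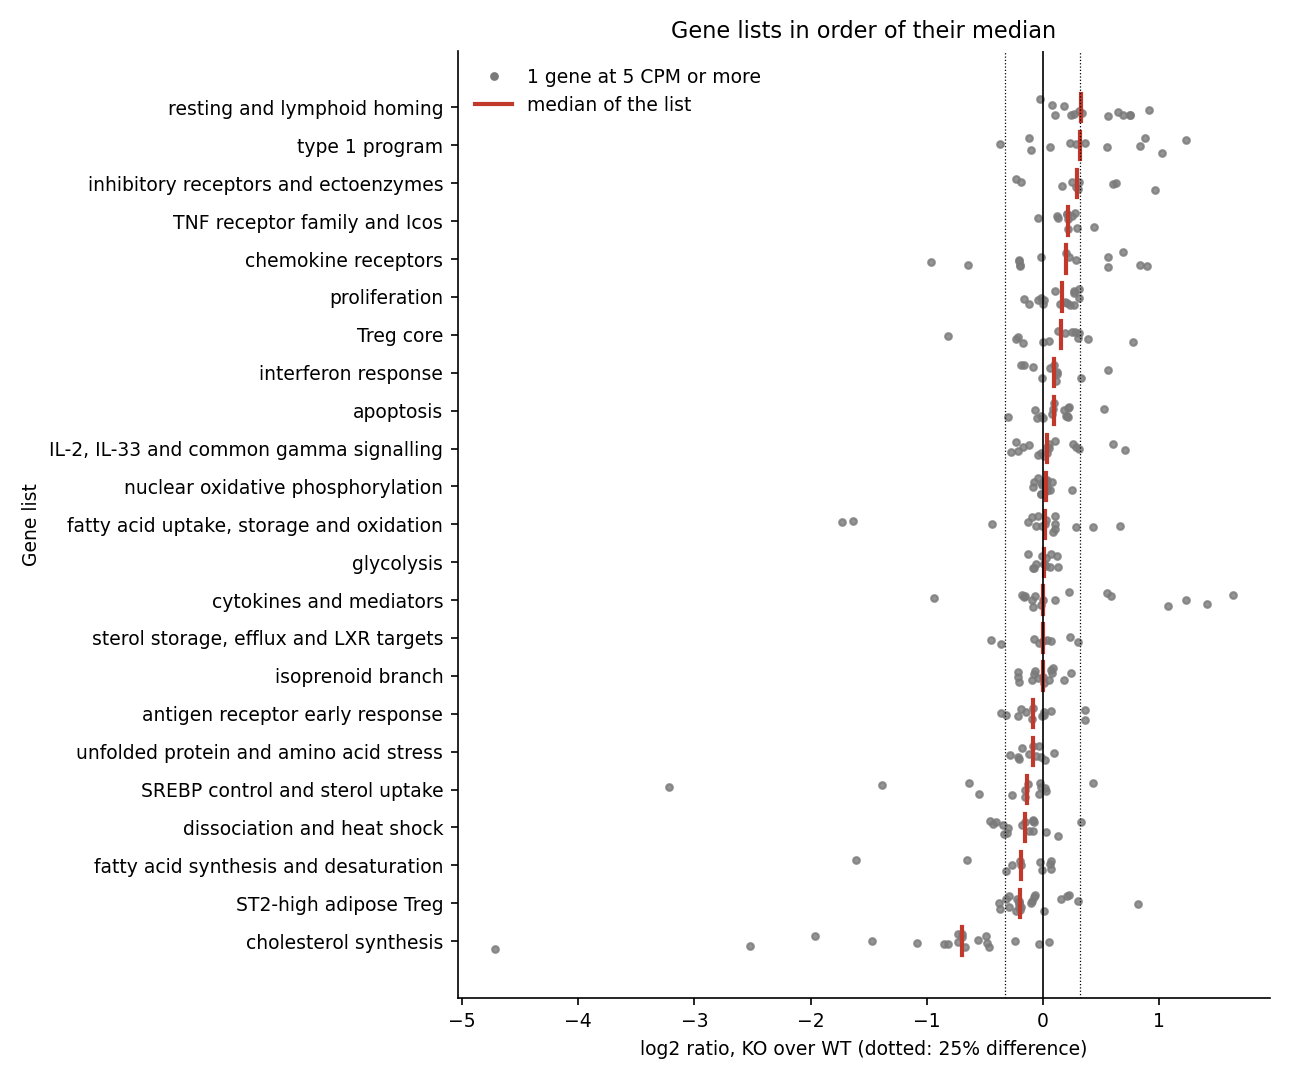
Log2 ratio of KO over WT for each measured gene (grey points) of the 23 gene lists, in order of the list's median (red bar). Dotted lines mark a 25% difference. The cholesterol synthesis list is alone in having its median beyond the lower dotted line, at -0.70, and the resting and type 1 lists have the highest medians, at 0.33 and 0.32.

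The second question was how the kinds of Treg cell differed between the pools. Foxp3, the lineage factor, had a UMI in 55.4% of WT and 56.7% of KO cells, and its log2 ratio was 0.05. Thinned to 2000 UMIs per cell, an Il1rl1 UMI was found in 59.6% (57.9 to 61.3) of WT and 47.8% (46.2 to 49.4) of KO cells. Without thinning the shares were 71.0% and 58.7%. Among 217 barcodes of the same library that carried a Cd79a UMI, a B cell gene, with a median of 6063 UMIs before thinning, the share was 25.8%, and among the 83 of these with no Cd3e UMI it was 6.02%. Klrg1 was found in 73.2% of WT and 59.6% of KO cells, Gata3 in 52.4% and 47.4%, and Pparg in 17.3% (16 to 18.7) and 13.9% (12.8 to 15.1).

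Genes of the ST2-high state were mostly within the 25% limit. Of 23 measured genes of that list, 2 were lower by the rule and 1 higher, close to the background of 4.9% and 5.41%. The median ratio was -0.20. Klrg1 stood at 1099 and 844 CPM (-0.38, -0.41 to -0.35), Fgl2, a secreted suppressive mediator gene, at 547 and 424 CPM (-0.37), Il1rl1 at 691 and 565 CPM (-0.29, -0.33 to -0.25) and Cd44 at 265 and 213 CPM (-0.31). Pparg had a ratio of -0.22. Bhlhe40, a transcription factor of tissue-resident and cytokine-producing T cells, went the other way, at 107 and 188 CPM (0.82, 0.73 to 0.91). With cells with and without an Il1rl1 UMI given equal shares in both pools, the median of the list was -0.09. None of its genes was then lower by the rule. Levels of Il1rl1 itself are brought together by that weighting.

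Genes of the resting, lymphoid-homing state were higher in KO in 7 of 14 measured cases and lower in none, with a median ratio of 0.33, against 5.41% higher among all measured genes. Bach2, a repressor that holds T cells in a resting state, stood at 27.0 and 50.8 CPM (0.91, 0.74 to 1.09). Satb1, a chromatin organizer, had a ratio of 0.75, the chemokine receptor gene Ccr7 0.69 (0.45 to 0.95), the transcription factor gene Tcf7 0.64 and the egress receptor gene S1pr1 0.56. At 2000 UMIs per cell, Tcf7 was found in 4.87% of WT and 8.42% of KO cells and Lef1 in 11.1% and 15%. Among the 83 Cd79a barcodes with no Cd3e UMI each was found in 1.20%. Ccr7, at 1.41% and 2.44%, has no such reference here, since B cells express it. B cell markers summed to 14.3 CPM in each pool. With barcodes of the 3 excluded genes kept, the ratio of Bach2 was 0.58. With the Il1rl1 gates at equal shares, 5 of 14 genes were higher and the median was 0.19.

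Type 1 genes were higher in KO in 6 of 12 measured cases and lower in 1, with a median ratio of 0.32. Among all measured genes 5.41% were higher and 4.9% lower. Ccl5, a chemokine gene of effector T cells, had 4271 UMIs in WT and 11808 in KO, 305 and 718 CPM, a ratio of 1.24 (1.19 to 1.29). Nkg7, a cytotoxic granule protein gene, stood at 73.2 and 149 CPM (1.03, 0.92 to 1.13), Tbx21, which encodes T-bet, at 28.4 and 52.2 CPM (0.88, 0.70 to 1.05), Cxcr3, its target and a homing receptor, at 70.4 and 126 CPM (0.84, 0.73 to 0.95) and Ifng at 35.5 and 52.1 CPM (0.55, 0.39 to 0.71). Il12rb1, a chain of the interleukin-12 receptor, was lower (-0.37). At 2000 UMIs per cell, Cxcr3 was found in 10.1% (9.06 to 11.2) of WT and 18% (16.8 to 19.3) of KO cells, Nkg7 in 7.45% and 14.9%, and Ccl5 in 14.7% and 22.3%. The 83 Cd79a barcodes with no Cd3e UMI had Cxcr3 and Ccl5 in 1.20% each. With the Il1rl1 gates at equal shares, 4 of 12 genes were higher, the median was 0.23, and the ratios were 0.85 for Ccl5, 0.71 for Nkg7 and 0.48 for Cxcr3. Markers of NK and innate lymphoid cells summed to 5.50 and 5.23 CPM in the 2 pools.

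**Figure D4:**
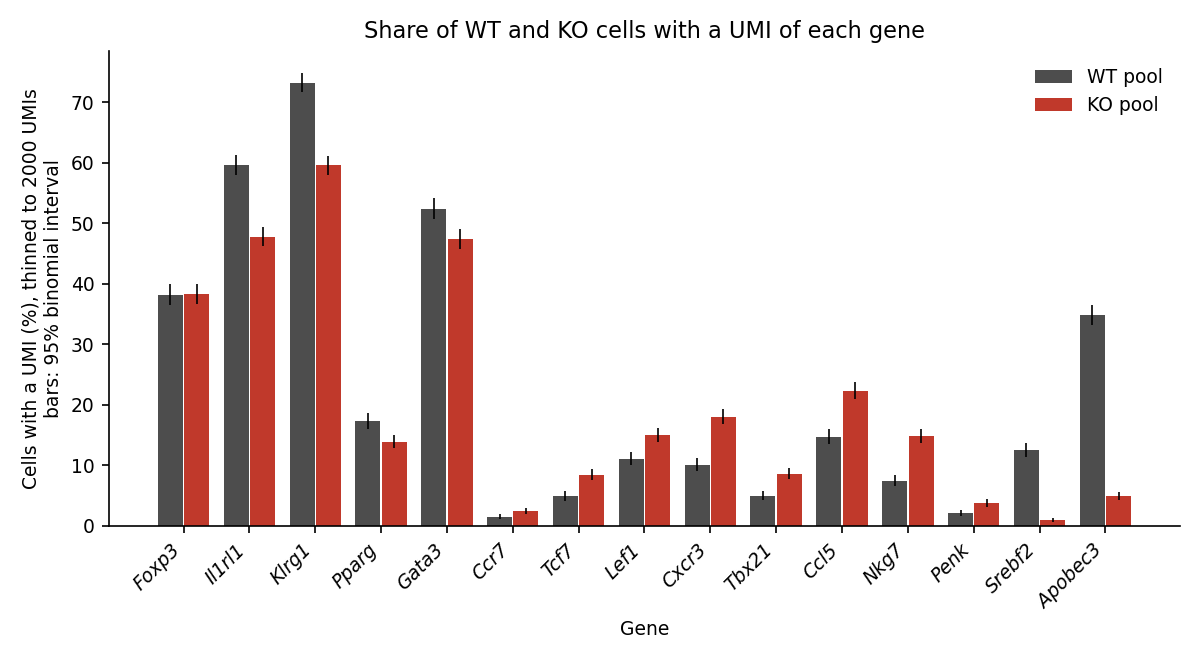
Share of WT cells (grey) and KO cells (red) with at least 1 UMI of each gene after thinning to 2000 UMIs per cell, with 95% binomial intervals. Foxp3 is at 38.2% and 38.3%, Il1rl1 and Klrg1 are lower in KO, and Cxcr3, Ccl5, Nkg7, Tcf7 and Lef1 are higher.

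The type 1 genes were seen on both sides of the gate on an Il1rl1 UMI. At 2000 UMIs per cell, a UMI of Cxcr3, Tbx21, Ccl5 or Nkg7 was found in 11.3% (9.89 to 12.8) of WT and 17.2% (15.4 to 19) of KO cells that also had an Il1rl1 UMI. Among cells without one the shares were 40.2% (37.5 to 43.0) and 50.3% (48.0 to 52.6). These 4 genes were all among the 15 with the highest ratios, and the intervals cover counting error in 1 pool per genotype.

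Single genes at the top of the ranking belonged to several functions. The 15 genes with the highest ratios were Penk, Gramd3, Ccl5, Tnfsf8, Nkg7, Ramp3, Bach2, Timp2, Trat1, Tbx21, Aff3, Cmah, Dusp14, Cxcr3 and Gm8281. Penk, the precursor of the opioid peptide enkephalin, had 279 UMIs in WT and 1019 in KO, 19.9 and 62.0 CPM, a ratio of 1.64 (1.45 to 1.83), and was found in 2.84% of WT and 5.38% of KO cells. Gramd3, a GRAM domain protein gene, stood at 31.3 and 76.1 CPM (1.28, 1.12 to 1.44) and Tnfsf8, the CD30 ligand gene, at 35.3 and 74.5 CPM (1.08, 0.92 to 1.23). Ramp3, a partner of calcitonin-family receptors, had a ratio of 0.95, Timp2, an inhibitor of metalloproteinases, 0.91, Trat1, an adaptor of the T cell receptor, 0.89, and Dusp14, a phosphatase gene, 0.84. These genes were chosen by the KO over WT ratio, and all 15 KO levels were farther on the log2 scale from the level in chow-fed mice of the diet pool than the WT levels were. Penk, for example, stood at 29.7 CPM in those NCD cells and Tnfsf8 at 20.3 CPM. The strains of the 2 experiments differ, and both were single pools.

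The 15 genes with the lowest ratios included Srebf2, Apobec3, Catspere2, Idi1, Cyp51, Pxdc1, Cbx7, Fdps, Sorcs1, Gm13522, 1700061F12Rik, Ccr3, Selenom and Gm6093. Idi1, Cyp51 and Fdps are enzymes of the sterol pathway. Catspere2, a subunit gene of the sperm calcium channel, had 1183 UMIs in WT and 346 in KO, 84.4 and 21 CPM (-2.0, -2.18 to -1.83). Pxdc1, a PX domain protein gene, stood at 39.6 and 17.2 CPM (-1.2), Sorcs1, a sorting receptor gene, at 52.6 and 25.0 CPM (-1.07, -1.25 to -0.90), and Ccr3, the eotaxin receptor gene, at 64.8 and 33.1 CPM (-0.97, -1.12 to -0.81). Here the NCD level was nearer to WT for 8 genes and nearer to KO for 7. Catspere2 stood at 19.3 CPM in the NCD cells, beside 21 CPM in KO, and Sorcs1 at 22.3 CPM, beside 25.0 CPM in KO. Pxdc1, at 41.6 CPM, and Cbx7, at 82.2 CPM, stood beside their WT levels. Fdps, at 25.3 CPM, also stood beside its KO level of 23.4 and below its WT level of 49.6. Idi1, at 17.3 CPM, and Cyp51, at 16.6 CPM, lay between the WT and KO levels. For Catspere2, Sorcs1 and the sterol enzyme gene Fdps, the WT pool was thus the one that stood apart from both other pools. Sterol genes outside these 15 also went both ways. In the NCD cells Msmo1 (12.4 CPM) and Insig1 (22.8 CPM), for example, stood nearer to their KO levels given above. Sqle and Tmem97, each at 10.8 CPM, stood nearer to their WT levels.

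Within the gates the same rule named partly other genes. In cells with an Il1rl1 UMI the 8 highest were Ccl1, Penk, Gramd3, Tnfsf8, Ifng, Dusp14, Gm2682 and Cxcr3. Ccl1, a ligand of CCR8, stood at 5.88 and 21.6 CPM (1.87, 1.47 to 2.31) and Ifng at 10.4 and 27.2 CPM (1.38, 1.06 to 1.71). In this gate a Ccl1 UMI was found in 1.41% of WT and 2.33% of KO cells, and an Ifng UMI in 2.26% and 3.96%. A single KO cell held 13.9% of the KO Ccl1 UMIs, and a single KO cell held 19.7% of those of Ifng. In cells without one the 8 highest were Penk, Lag3, Hdac9, Dpp4, Gas7, Fgf13, Gstp2 and Poldip3, with Lag3, an inhibitory receptor gene, at 11 and 25.4 CPM (1.2, 0.69 to 1.77). Penk had ratios of 1.64 and 1.66 in the gates. Ifng had a ratio of -0.19 and Ccl1 of -0.24 in cells without an Il1rl1 UMI, and the difference between gates was not tested. The lowest genes of the gate with an Il1rl1 UMI included Srebf2, Apobec3, Catspere2, Idi1, Cyp51, Sorcs1 and Cbx7, and those of the other gate were Srebf2, Apobec3, Idi1, Catspere2, Cyp51, Gm49313, Fdps and Cbx7.

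Other immune gene groups differed in part, beside 5.41% higher and 4.9% lower among all measured genes. Among cytokines and mediators, 6 of 17 measured genes were higher and 1 lower, with a median of 0.00, and beside Penk, Ccl5, Tnfsf8 and Ifng they included Ccl1 (1.41). Il13, a type 2 cytokine gene, had 261 UMIs in WT and 160 in KO (-0.94, -1.23 to -0.65). Of 15 chemokine receptor genes, 5 were higher, among them Ccr6 (0.90), and 2 were lower, Ccr3 and Ccr9 (-0.65). Of 10 inhibitory receptors and ectoenzymes, 3 were higher, Lag3 (0.97), the adenosine-producing ectoenzyme gene Nt5e (0.63) and Cd96 (0.60), and none was lower.

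Treg core genes had 2 of 14 members higher, the latent TGF-β receptor gene Lrrc32 (0.78) and the folate receptor family gene Izumo1r (0.39), and 1 lower, the orphan receptor gene Gpr83 (-0.82). In interleukin-2, interleukin-33 and common gamma chain signalling, 2 of 18 measured genes were higher by the rule and none was lower. These were Stat5a (0.70, 0.50 to 0.91) and Stat5b (0.61, 0.49 to 0.73), the transcription factors downstream of the interleukin-2 receptor. Of the 18 ratios, 5 had intervals below 0 and 6 had intervals above 0. Il2ra, a chain gene of that receptor, was found after thinning in 59.5% (57.8 to 61.2) of WT and 51.4% (49.8 to 53.0) of KO cells. Of 11 TNF receptor family genes and Icos, Tnfrsf1a (0.44) was higher. Counts this small are to be read beside the 5.41% higher and 4.9% lower among all measured genes. Early response genes of the antigen receptor had Nr4a2 (0.36) and Egr2 (0.37) higher and Spry1, a signalling inhibitor gene, lower (-0.36) among 13 measured. The interval of Egr2 held 0.

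Genes of tissue dissociation and heat shock were lower in 5 of 17 cases and higher in 1, against 4.9% and 5.41% of all measured genes. Atf3 stood at 447 and 326 CPM (-0.46), Hspa1b at 370 and 276 CPM (-0.43) and Fos at 1910 and 1448 CPM (-0.40), while Hsph1, a co-chaperone gene, was higher (0.33). Such genes respond to the handling of cells, and their part in the other differences was not tested. Interferon response had 2 of 11 genes higher, Iigp1 (0.56) and Ifit2 (0.33), and apoptosis 1 of 15, the death-promoting Bcl2l11 (0.52). No measured gene passed the 25% limit among 16 of proliferation (median 0.17), 11 of unfolded protein and amino acid stress (-0.08), 13 of glycolysis (0.01) and 17 of nuclear oxidative phosphorylation (0.02). In these last groups Stmn1 (0.31), Sdf2l1 (-0.28), Gapdh (0.13) and Ndufa4 (0.25) were among the farthest from equal.

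Genes beside Srebf2 on chromosome 15 are described apart, as they lie near the floxed gene. Of 98 measured genes within 5 Mb, Srebf2 left out, 15 (15.3%) were past the 25% limit, 6 higher and 9 lower. The share was 8.42% of 273 genes farther along the chromosome and 10.0% of 9307 genes on other chromosomes. The median of the absolute log2 ratio was 0.10 within 5 Mb and 0.10 on other chromosomes, so the median neighbour was as close to equal as the median gene elsewhere.

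Apobec3 (79892058 to 79918218) had 3112 UMIs in WT and 459 in KO, 222 and 27.9 CPM, a ratio of -2.99 (-3.14 to -2.85), and was found in 52.5% of WT and 10.5% of KO cells. It encodes a deaminase that restricts retroviruses. Its ratio was -3.01 in cells with an Il1rl1 UMI and -3.06 in cells without one. Next to it, Cbx7 (79915804 to 79971143) and Cbx6 (79823898 to 79834333), which encode Polycomb subunits, had ratios of -1.15 (-1.29 to -1.01) and -1.17. The annotated spans of Apobec3 and Cbx7 overlap, and the sources used here do not say how the counting used strand. Both Polycomb genes were lower in each gate, Cbx7 by -1.17 and -1.18 and Cbx6 by -1.18 and -1.25. C1qtnf6 (1.02), Poldip3 (0.78), Mcat (0.57), Gm36738 (0.52), Ncf4 (0.46) and Tspo (0.35) were higher. Gcat (-0.75), Gtpbp1 (-0.58), Ttll12 (-0.39) and Cdpf1 (-0.35) were lower, with Cyb5r3 at -0.34.

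**Figure D5:**
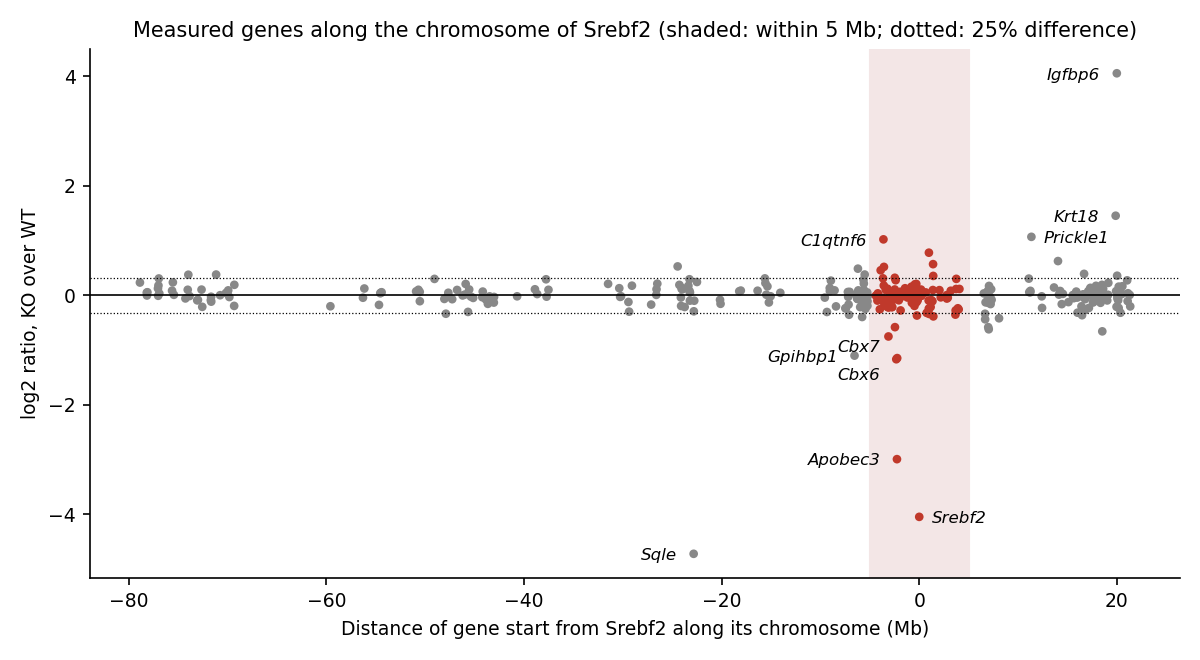
Log2 ratio of KO over WT for each measured gene on chromosome 15 by the distance of its start from that of Srebf2, in Mb. Genes within 5 Mb are red on a shaded band, and dotted lines mark a 25% difference. Srebf2 and Apobec3 lie far below the line, with Cbx6 and Cbx7 beside Apobec3, and Sqle lies 22.8 Mb away at -4.72. In Gpihbp1, Krt18 and Igfbp6 a single cell held 45.6%, 35.2% and 56.3% of the UMIs of the higher pool.

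Variable segments of the T cell receptor, which mark clones, differed in both directions. At 20 CPM or more, 7 of 16 alpha chain (Trav) segments were higher in KO and 2 lower, and 8 of 17 beta chain (Trbv) segments were higher and 5 lower. Of 6337 other genes at that level, 175 were higher and 130 lower. Trav7-3 had 115 UMIs in WT and 2400 in KO, 8.21 and 146 CPM (4.15), and was found in 1.00% of WT and 11.4% of KO cells. Trav16n stood at 4.43 and 37.6 CPM (3.08) and Trav12-2 at 20.4 and 96.8 CPM (2.24). Trbv4 stood at 42.1 and 9.49 CPM (-2.15), Trbv17 at 57.2 and 13.3 CPM (-2.10), and Trbv20 was found in 12.7% of WT and 3.26% of KO cells. Reads of related segments may be split between them. With 1 pool of 4 mice per side, expansion in 1 mouse and a difference between genotypes cannot be told apart, and the same holds for every gene above.

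T cell markers matched the labelled cell type. Cd3e had a UMI in 92.3% of WT and 92.8% of KO cells, and the 6 T cell markers summed to 2839 and 3079 CPM. Of 7 B cell markers 1 was at 0 in each pool, and of 9 macrophage and monocyte markers 2 in WT and 1 in KO, with sums of 6.21 and 6.02 CPM. The member rule sets Cd79a and Lyz2 to 0, so these low values follow in part from the selection. Adipocyte markers summed to 2.07 and 1.46 CPM and stromal and endothelial markers to 45.3 and 67.4 CPM, of which Pecam1 gave 37.4 and 46.8. Of the 3 stromal and endothelial markers at 5 CPM or more, Dcn (1.43 and 8.03 CPM, 2.46) and Upk3b (1 and 90 UMIs, 5.68, 3.75 to 11.6) were higher in KO. A single KO cell held 59.1% of the Dcn UMIs of that pool, and a single cell held 57.8% of those of Upk3b. Red cell markers stood at 464 and 82.9 CPM, and 6 WT and 9 KO cells held 3 or more of their UMIs. Droplets with neither hashtag at 90%, 745 in all, were left out. They can hold doublets of both genotypes, but those just outside the WT threshold had a median of 3344 UMIs, below that of the WT cells, and single cells among them were not told apart from doublets. Doublets within a genotype were not removed. Of the members, 87 barcodes also occurred among the members of the diet pool.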

How the data were processed

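Single-cell 5′ expression of visceral adipose Treg cells was taken from 1 mixed library of 2 genotypes, with hashtag counts in the same matrix. The authors deposited raw UMI counts per gene and barcode, per the file headers, which name Cell Ranger 7.1.0 for this pool and 7.0.1 for the diet pool. Version 7.0.1 and the mm10 build stand in the submitters' processing notes. The sources used here name no filter applied before deposit.

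Members were selected by the stated rule, and counts were summed per hashtag over 32285 gene rows in Python 3.11.15 with numpy 2.4.6, scipy 1.17.1 and pandas 2.3.3. Ratios had 0.5 counts added to each sum. Levels carry exact Poisson intervals, ratios intervals from the binomial split of the sums, and shares Clopper-Pearson intervals, all at 95%. A sum of 0 allows up to 3 counts, 0.214 CPM in WT and 0.182 CPM in KO. Cells were not treated as replicates. The ratio and its interval were run on simulated Poisson counts, the model the interval assumes. Clumping of UMIs in single cells was not covered by it. Gene positions were matched for 9679 of 9822 measured genes to RefSeq on GRCm38.p6.

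The genes named are the 15 highest and 15 lowest ratios at 20 CPM or more with no cell holding over 20% of a gene's UMIs in the higher pool, the 8 highest and lowest within each Il1rl1 gate, all cholesterol synthesis and SREBP control genes, up to 5 genes of every other list, genes within 5 Mb of Srebf2 past the 25% limit, and Srebf2, Srebf1, Foxp3, Il1rl1 and Pparg. Counts and medians cover whole lists, some members of which are not reported here. Members, the 23 gene lists and 11 marker lists were chosen with earlier results of these data known. The marker lists not given in the report summed as follows in WT and KO: dendritic cell 4.92 and 8.82 CPM, neutrophil and mast cell 0.571 and 0.973, CD8 T cell 15.3 and 17.3, plasma cell 1.50 and 1.09. Alternatives covered scaling (TMM factors of edgeR 4.0.16 in R 4.3.3), the added count, the filters, the hashtag threshold, the Il1rl1 gates and the thinning depth.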

Additional observations from a re-analysis of the deposited data

How the results depend on the processing

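No paired analysis was possible because each genotype was 1 pool with no replicate numbers. The ratio of Srebf2 stayed between -4.41 and -3.82 and the median of the cholesterol synthesis list between -0.77 and -0.46 over the alternatives run. A hashtag threshold of 99% left 244 WT and 3151 KO cells, since WT cells carried more of the other hashtag. With so few WT cells, 1666 genes were higher and 1592 lower, 10 sterol enzymes were lower and 1 was higher, and the median of the resting list was 0.66. At a floor of 20 CPM, which tests fewer genes, 191 genes were higher and 141 lower, 8 of them sterol enzymes. The share of cells with an Il1rl1 UMI moved with depth and definition in both pools. It was 42.4% in WT and 32.6% in KO at 1000 UMIs, 71.0% and 58.7% without thinning, 61.7% and 51.4% among cells with a Foxp3 UMI, and 34.5% and 27.7% with 2 or more Il1rl1 UMIs. With barcodes of the 3 excluded genes kept, the WT share was 57.5%. KO was lower than WT in each of these settings, by 6.82 to 12.4 percentage points. For 35 named genes and 12 alternatives, all 420 ratios kept their sign, and 53 lay outside the main counting interval. At the floor of 20 CPM the ratio of a gene is the main one by construction. Most of these genes were picked for extreme ratios in the same cells, so the kept signs are not an independent check. At the 99% threshold Fdps (-0.04), Dusp14 (0.31) and Gm8281 (0.17) fell inside the 25% limit. Bach2 and Aff3 had ratios of 0.58 and 0.49 with barcodes of the 3 excluded genes kept, Gm13522 -0.56 without the deepest 5% of cells, and Timp2 0.56 at 500 hashtag counts or more. The alternatives of 500 hashtag counts or more and of leaving out the cell with most UMIs of each gene were chosen after seeing the data. The median of all genes moved by less than 0.1 on the log2 scale under every scaling. Depth limits Sqle and Lss, which had 10 and 57 UMIs in KO. Spread between mice could not be measured.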
